A study of Mus musculus with 2 samples.

Results

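The Hippo kinase cascade and its upstream activators were followed in 10 mouse genes: the kinases Stk4 (MST1), Stk3 (MST2), Lats1 and Lats2, the adaptors Sav1, Mob1a and Mob1b, and the upstream activators Nf2, Wwc1 and Frmd6. All probe sets that the platform annotation gives to exactly 1 of these genes were taken, older symbols being updated through the Entrez identifier. This gave 27 probe sets for 9 of the 10 genes, out of 34945 probe sets for 18193 genes in the table. No probe set is named for Stk3 in the annotation used here, and Stk3 was not analysed here.

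The samples were whole lungs at E15.5 (the embryonic day), from wild type mice and from TAZ-deficient mice of the same litters, hybridised to an Affymetrix one-colour array of the mouse transcriptome. For each genotype 4 total RNA samples had been mixed into 1 pool, and each pool was read on 1 array. Neither the strain nor the way in which TAZ was made deficient is stated in the labels. With 1 array for each genotype there is no spread between samples, so no test, p-value or standard deviation of a difference is given and no difference has a replicate check.

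In the Hippo pathway the MST kinases, held by the scaffold SAV1, phosphorylate the LATS kinases, which act together with their coactivators of the MOB1 family. Active LATS kinases phosphorylate the coactivators YAP and TAZ, which are then kept in the cytoplasm by 14-3-3 proteins or degraded, and so cannot reach the TEAD transcription factors in the nucleus. Merlin (the product of Nf2), KIBRA (Wwc1) and willin (Frmd6) sit at the cell cortex and promote LATS activation, and Lats2 and Nf2 are also known as transcriptional targets of YAP and TAZ in a negative feedback loop. The cascade acts largely through phosphorylation, which an RNA measurement does not read. The comparison asks how the transcripts of the cascade that restrains TAZ stood in lungs without TAZ.

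Wwtr1, the gene of TAZ, was at background in the TAZ-deficient pool. Its 3 probe sets gave 791.2, 222.9 and 176.9 signal units in the wild type pool and 11.3, 6.4 and 3.9 in the TAZ-deficient pool, so the arrays followed their labels. Signals are the deposited linear intensity values, and a floor of 15.2, the median of all values, was set before log2 ratios (TAZ-deficient divided by wild type) were computed. The epithelial gene Nkx2-1, a lung identity factor, read 61.1 and 60.6, and the summed signal of the 11 epithelial markers was 12662.1 for the wild type and 12731.3 for the TAZ-deficient pool. The sum rests mostly on the brightest markers. Of the 11, 4 had a negative and 7 a positive ratio, and none was 1.5-fold different. At 1.2-fold 1 was lower, Scgb3a2 at 1408.5 and 1057.4, and 0 were higher.

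The promoters of 3 members are shown because they hold GGAATG, the core of the site bound by TEAD factors, and those genes are Lats2, a gene of the feedback loop, and the adaptors Sav1 and Mob1a. The sequences are from RefSeq on GRCm38.p6, run 5′ to 3′ on the strand of the gene from 230 bases before to 20 bases after an annotated transcript start, and the motif is in capitals. In Lats2 (chr14:57746104-57746353, minus strand) it reads GGAATG and begins at base 5 after the start. In Sav1 (chr12:69986983-69987232, minus strand) and Mob1a (chr6:83325809-83326058, plus strand) it lies on the opposite strand, reads CATTCC, and begins 106 and 209 bases before the start.
Lats2: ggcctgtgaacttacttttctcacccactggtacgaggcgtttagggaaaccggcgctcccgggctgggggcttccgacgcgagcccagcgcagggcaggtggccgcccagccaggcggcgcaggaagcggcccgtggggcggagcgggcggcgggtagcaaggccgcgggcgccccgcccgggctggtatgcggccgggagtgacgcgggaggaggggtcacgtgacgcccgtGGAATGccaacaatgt
Sav1: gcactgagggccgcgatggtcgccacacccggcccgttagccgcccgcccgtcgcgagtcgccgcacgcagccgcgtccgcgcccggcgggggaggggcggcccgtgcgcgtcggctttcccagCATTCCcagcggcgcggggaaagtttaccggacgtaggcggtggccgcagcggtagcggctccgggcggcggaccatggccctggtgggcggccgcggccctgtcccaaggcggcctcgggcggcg
Mob1a: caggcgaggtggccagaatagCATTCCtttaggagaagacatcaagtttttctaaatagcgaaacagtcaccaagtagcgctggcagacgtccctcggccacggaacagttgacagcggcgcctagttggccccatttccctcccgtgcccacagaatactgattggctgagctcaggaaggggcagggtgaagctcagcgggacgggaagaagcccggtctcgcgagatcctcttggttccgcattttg

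Both strands were searched for GGAATG in windows of 250 bases before to 50 after each start and no other motif was searched. Of the 11 windows of 9 members, 3 held it, against 14.7% of 32851 windows of all genes. The match describes letters and is no evidence of binding, and Nf2, Wwc1, Frmd6, Lats1, Stk4 and Mob1b had no such letters in these windows. The window at the other annotated start of Lats2 had none either. The windows of the members had a median GC content of 67.7%, and those of all genes 52.7%.

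**Figure D1:**
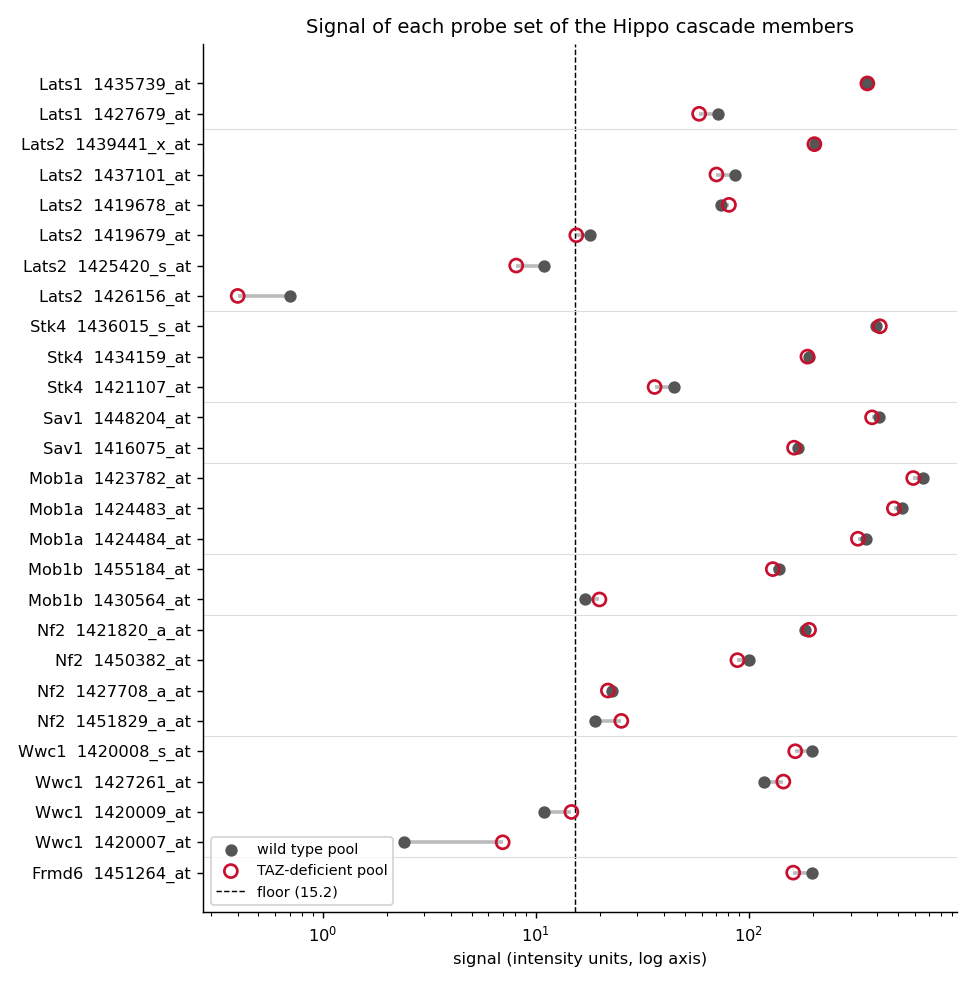
Signal of each of the 27 probe sets (rows, grouped by gene) on a logarithmic axis in intensity units, filled grey for the wild type pool and open red for the TAZ-deficient pool, with the floor of 15.2 dashed. The 2 points lie close together in nearly every row above the floor, and 4 probe sets of Lats2 and Wwc1 lie at or below it in both pools.

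No member of the cascade reached a 1.5-fold difference between the pools, and with 9 genes that count is near the background. None of the 9 members was 1.5-fold different in either direction, against 2.75% of all 12040 measured genes, a gene being measured when its brightest probe set was above the floor on either array and represented by that probe set. At 1.2-fold the count was 1 lower, Frmd6, and 0 higher, where 10.6% of measured genes were 1.2-fold lower and 8.02% higher, 18.6% in all. Among the 4638 measured genes with a mean signal inside the range of the members (134.1 to 622.2), 0.41% were 1.5-fold and 8.45% were 1.2-fold different in either direction, so 1 of 9 is not a low count. Negative ratios were found for 6 of 9 members and for 53% of measured genes, and the median log2 ratio was -0.10 for the members and -0.01 for all measured genes. These are descriptions of 2 arrays and not tests.

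At the level of probe sets, 23 of 27 were above the floor on both arrays and 4 were at or below it on both. Of those 23, none was 1.5-fold different, against 2.78% of 19818 probe sets with 1 gene. Ratios were below 0 for 16 of 23, against 52.3%, while 4 were at least 1.2-fold lower (10.8% of all) and 2 at least 1.2-fold higher (8.51% of all). The log2 ratios ran from -0.31, for a dim probe set of Stk4, to 0.42, for a dim probe set of Nf2.

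Probe sets of the same gene gave the one available measure of error. In the 5201 genes for which 2 or more probe sets exceeded the floor on both arrays, the SD of their disagreement, taken between the brightest and the second brightest and divided by the square root of 2, was 0.19 on the log2 scale (1.14-fold). Over the 8 members with such a pair it was 0.20, and the brightest and second brightest had the same sign in 3 of 8, against 58.1% of those genes. This SD holds no variation between embryos, pools or labelling reactions. Apart from Wwc1 and Frmd6, the brightest probe set of every member had a ratio within 1 such SD of 0. Where both probe sets were above 106.3 signal units the SD was 0.13, and the ratio of Mob1a, -0.16, also lay outside it.

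**Figure D2:**
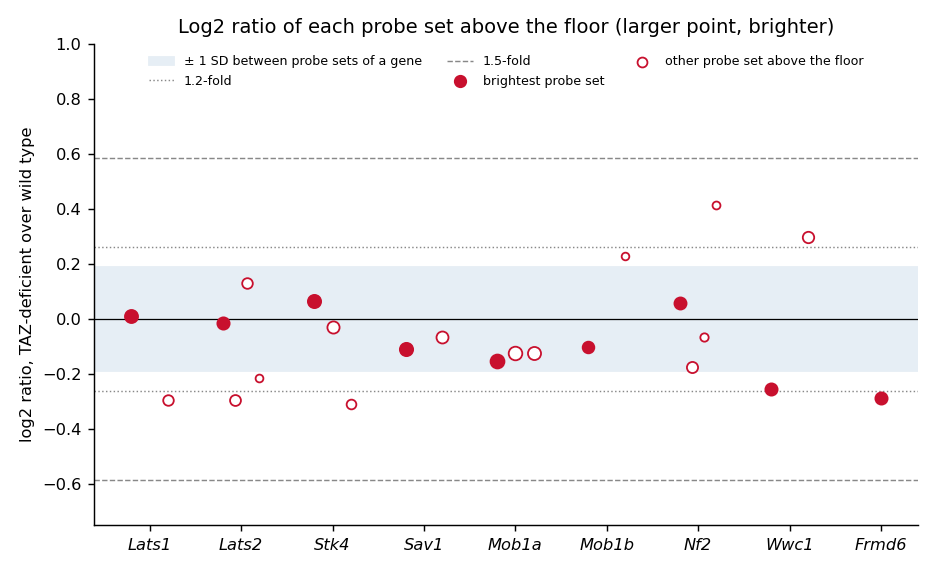
Log2 ratio (TAZ-deficient divided by wild type, vertical axis) for the 23 probe sets above the floor on both arrays, by gene, larger points being brighter, filled for the probe set that stands for the gene. The shaded band is 0.19 either side of 0, the SD between probe sets of a gene, and dotted and dashed lines mark 1.2-fold and 1.5-fold. All points lie inside the 1.5-fold lines, and the 3 points of Mob1a and the 2 of Sav1 lie together below 0.

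Among the kinases, Stk4, which encodes the upstream kinase MST1, gave 392.8 in the wild type and 411.2 in the TAZ-deficient pool at its brightest probe set (1436015_s_at). Its other 2 probe sets read 192.2 and 188.1, and 44.7 and 36.1. The brighter pair thus differed by less than 1.05-fold in opposite directions, and the dimmest was 1.24-fold lower.

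Lats1, a kinase that phosphorylates YAP and TAZ directly, read 356.3 and 359.2 at its brighter probe set (1435739_at), a log2 ratio of 0.01. Its dimmer probe set (1427679_at) read 71.6 and 58.4, or 1.23-fold lower. The 2 probe sets of Lats1 differed by 0.31 on the log2 scale, and 19.8% of genes with 2 probe sets above the floor differed by at least as much.

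Lats2, the paralogue of Lats1 and a feedback target of YAP and TAZ, had 6 probe sets, more than any other member. The brightest (1439441_x_at), whose suffix marks possible cross-hybridisation, read 205.1 and 202.8. The next (1437101_at) read 86.3 and 70.4, 1.23-fold lower, while 1419678_at read 73.7 and 80.6, 1.09-fold higher. Another (1419679_at), which the annotation ties to the same source sequence as 1419678_at, was just above the floor, with 18.0 in wild type and a log2 ratio of -0.22. The ratios of Lats2 thus had different signs, from -0.29 to 0.13, and the gene had no single direction.

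The remaining probe sets of Lats2 were below the floor on both arrays, at 10.9 and 8.1 and at 0.7 and 0.4, and no fold is given for them. A further probe set is listed for both Lats2 and Xpo4, a nuclear transport gene, and was therefore not counted as a member. It read 58.6 and 59.6. Over all 3 measured kinases, 6 of 9 probe sets above the floor had a negative ratio, with a median of -0.03, and no kinase had all of its probe sets on the same side of 0.

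The adaptors had ratios that were small and mostly of the same sign. Mob1a, a coactivator that binds and activates LATS kinases, read 656.5 and 589.6, 521.9 and 478.4, and 354.0 and 324.5 at its 3 probe sets. All 3 were lower in the TAZ-deficient pool, by 1.11-fold, 1.09-fold and 1.09-fold, and their log2 ratios lay within 0.03 of each other. The last 2 share a source sequence and are not independent readings. Of 1301 genes with 3 probe sets above the floor on both arrays, 21.1% had all 3 below 0.

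Sav1, the scaffold that joins MST to LATS, read 408.0 and 378.0 (1.08-fold lower) and 170.4 and 162.8 (1.05-fold lower) at 2 probe sets from the same source sequence. Both probe sets were below wild type, as were both of 30.1% of the 3134 genes with 2 probe sets above the floor. Mob1b, the close paralogue of Mob1a, read 139.0 and 129.4 at its brighter probe set (1.07-fold lower) and 17.0 and 19.9 at a dim one (1.17-fold higher). The brightest probe set of each of the 3 adaptors had a negative ratio, between -0.16 and -0.10, which is less than the SD of 0.19 between probe sets. That SD includes dim probe sets. It was 0.13 where both probe sets were above 106.3, as those of Mob1a and Sav1 were, and Mob1a exceeded this smaller SD.

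Of the upstream activators, Nf2, which encodes the cortical tumour suppressor merlin, was split between probe sets. Its brightest (1421820_a_at) read 183.7 and 191.4, or 1.04-fold higher, and the next (1450382_at), from the same source sequence, read 99.8 and 88.3, or 1.13-fold lower. The dim probe sets read 22.8 and 21.8, and 18.9 and 25.2. Of these 4 probe sets 2 were higher and 2 lower, and the largest ratio, 0.42, belonged to the one with the lowest wild type signal.

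Wwc1, which encodes the WW domain scaffold KIBRA, showed the widest disagreement between the 2 brightest probe sets of any member. The probe set shared between transcripts (1420008_s_at) read 196.9 and 164.9, 1.19-fold lower, and 1427261_at read 118.0 and 145.0, 1.23-fold higher. The log2 ratios differed by 0.55, and 5.25% of genes with 2 probe sets above the floor differed by at least as much. The other 2 probe sets of Wwc1 were below the floor on both arrays, at 10.9 and 14.7 and at 2.4 and 7.0. The annotation ties the 4 probe sets of Wwc1 to 2 source sequences, and 3 of the 4 share the same one. No direction can be given for Wwc1.

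Frmd6, which encodes the FERM domain protein willin, had the lowest ratio of the 9 members. Its only probe set (1451264_at) gave 197.1 for the wild type and 161.3 for the TAZ-deficient pool, 1.22-fold lower, a log2 ratio of -0.29. Of all measured genes 9.0% had a lower ratio. Among the genes in the signal range of the members, 4.83% were at least 1.2-fold lower. With a single probe set, the disagreement between probe sets could not be read for Frmd6.

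**Figure D3:**
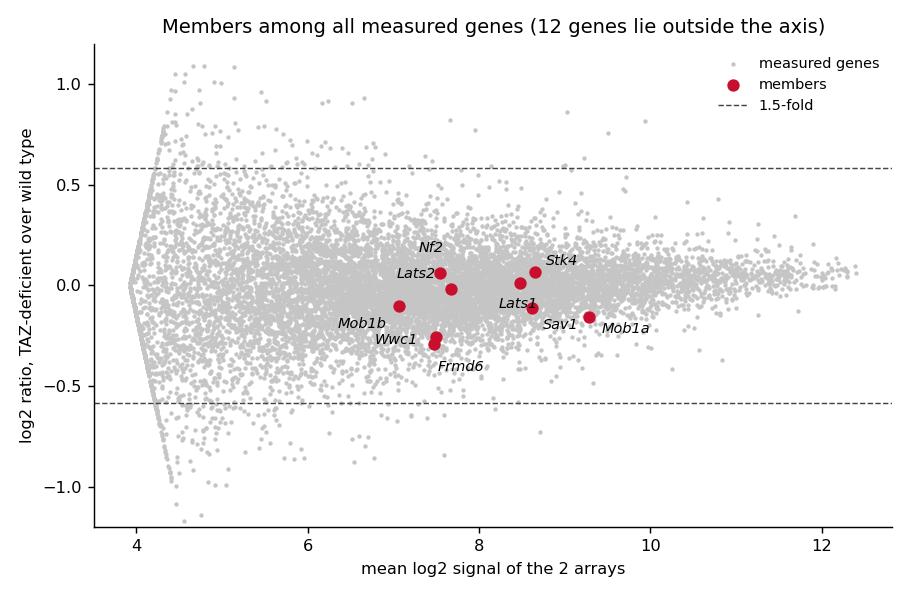
Log2 ratio (TAZ-deficient divided by wild type) against the mean log2 signal of the 2 arrays for 12040 measured genes (grey) and the 9 members (red), each gene at its brightest probe set, with 12 genes beyond the vertical axis. The members lie in the middle of the signal range and inside the 1.5-fold lines (dashed), with Frmd6 and Wwc1 lowest.

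In the median, dimmer probe sets of the members had the larger ratios. The 14 member probe sets with a signal of at least 100 on both arrays had a median absolute log2 ratio of 0.11. For the 9 with a signal under 100 on either array it was 0.23. The lowest ratio and the highest both came from the dimmer probe sets, and the SD between probe sets of all genes was likewise 0.13 where both probe sets were above 106.3 and 0.23 for the others.

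The other parts of the Hippo pathway were read from lists of textbook members. Of the kinases that feed into MST and LATS, none of 11 measured was 1.5-fold different, 7 had a negative ratio and the median was -0.06. The brightest, Map4k4, a kinase that can phosphorylate LATS in parallel with MST, read 391.0 and 318.9 (1.23-fold lower), and its second brightest probe set 118.2 and 113.0. Taok1, a kinase that activates MST, read 290.0 and 332.5 (1.15-fold higher), and its second brightest probe set 197.8 and 231.2. At 1.2-fold, 3 of the 11 kinases were lower and 0 higher, against 10.6% and 8.02% of measured genes. The lowest was Taok2, a relative of Taok1, at 67.3 and 46.6 (1.44-fold lower), with no other probe set above the floor on both arrays.

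Of the RASSF scaffolds, which carry SARAH domains and bind MST kinases, 1 of 6 measured was 1.5-fold different, against 2.75% of measured genes. This was Rassf2, with signals of 56.0 and 35.9 (1.56-fold lower), with no other probe set above the floor on both arrays. The median of the list was -0.13, and 4 of 6 ratios were negative. In the STRIPAK complex, a phosphatase assembly that dephosphorylates MST, none of 10 measured genes was 1.5-fold or 1.2-fold different. Its subunits Ppp2r1a and Ppp2ca, the PP2A scaffold and catalytic subunit, read 2299.0 and 2358.4, and 1911.7 and 1885.0.

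Close relatives of the members were read in the same way. Of 14 measured paralogues, 4 had a negative and 10 a positive ratio, where 53% of measured genes had a negative ratio. The median was 0.05. None was 1.5-fold different, against 2.75% of measured genes. At 1.2-fold 0 were lower and 1 higher, against 10.6% and 8.02%. Rdx, which encodes the FERM protein radixin, a relative of merlin, read 1255.0 and 1500.6, and 1002.2 and 1197.8 at its second brightest probe set, with a log2 ratio of 0.26 at each. Msn, which encodes moesin of the same family, read 1110.7 and 1143.4. Whether the signs of the paralogues differ from those of the members was not tested.

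Downstream and around LATS most ratios were also small. None of 14 LATS inhibitors and turnover factors was 1.5-fold different, and the brightest were Nedd4, a ubiquitin ligase, at 3134.2 and 3115.2, and Ddb1, a ubiquitin ligase adaptor, at 911.6 and 959.2. At 1.2-fold 0 of the 14 were lower and 2 higher, against 10.6% and 8.02% of measured genes. These were Limd1 (349.8 and 436.3) and Siah2 (42.9 and 54.6), whose second brightest probe sets had log2 ratios of 0.08 and -0.05. None of 12 genes for the retention and turnover of YAP and TAZ was 1.5-fold different. Its brightest members, the 14-3-3 genes Ywhaq and Ywhae, read 3549.6 and 3244.3, and 3146.8 and 3240.3. The median log2 ratios of these lists were -0.0019 and 0.03.

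Counts for the lists on either side of the cascade are given for comparison. Apart from Wwtr1, none of the other 8 measured effectors and partners was 1.5-fold different. Of these 8, 4 were lower by 1.2-fold or more and 0 higher, against 10.6% and 8.02% of measured genes. The median log2 ratio over the 8 was -0.23. The 4 were the cofactor genes Vgll2 (-0.53), Vgll3 (-0.44) and Vgll4 (-0.31) and the TEAD factor gene Tead3 (-0.28), none with a signal above 72.0. For genes whose 2 brightest probe sets were not both above 106.3, the SD between probe sets was 0.23. None of 13 angiomotins and junctional regulators was 1.5-fold different, 0 were 1.2-fold lower and 2 higher, and the median was 0.06. Among 6 Fat and Dachsous genes 1 was 1.5-fold higher, and among 14 canonical targets of YAP and TAZ 1 was lower and 1 higher. Of all measured genes 2.75% were past 1.5-fold in either direction. The Fat and Dachsous gene was Fat4, at 71.8 and 108.3 (1.51-fold higher), and its second brightest probe set read 66.6 and 69.6. At 1.2-fold, 0 Fat and Dachsous genes were lower and 2 higher, and 3 canonical targets were lower and 1 higher. The 3 lower targets were Ccn1 (139.8 and 100.0), Ccn2 (215.5 and 159.1) and the dim Crim1 (30.6 and 20.3). The higher one was Myof, also dim (32.6 and 56.2). The medians of the last 2 lists were 0.13 and -0.07.

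**Figure D4:**
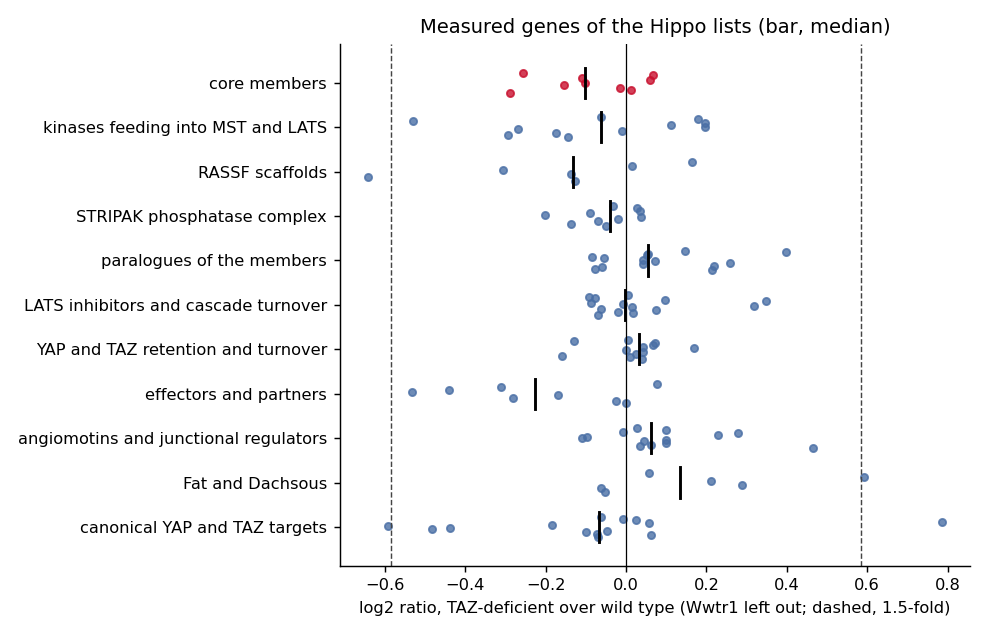
Log2 ratio (TAZ-deficient divided by wild type, horizontal axis) of every measured gene in the Hippo lists (rows), Wwtr1 being left out, with the median of each list as a bar and 1.5-fold dashed. The members (red) lie between -0.29 and 0.07, and few genes of any list pass the dashed lines.

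Markers of some other cell types differed between the pools. None of 10 mesenchymal, 8 endothelial, 7 leukocyte and 5 mesothelial markers measured was 1.5-fold different. At 1.2-fold 1 mesenchymal and 2 leukocyte markers were lower, and 1 mesothelial marker was higher. Against 53% of measured genes with a negative ratio and 2.75% past 1.5-fold, 6 of 7 smooth muscle markers had a negative ratio and 1 was 1.5-fold lower, the list summing to 4005.3 signal units in wild type and 3717.7 without TAZ. At 1.2-fold 4 of these 7 were lower and 1 higher, against 10.6% and 8.02% of measured genes. The median log2 ratio of the list was -0.36. The gene past 1.5-fold was Cnn1, with a log2 ratio of -0.59. The sum rests mostly on the brightest marker, Acta2, which read 2749.2 and 2701.5. The 1 with a positive ratio, Myocd, read 45.7 and 59.0. Of 5 measured red cell markers 3, all embryonic globins, were at least 1.5-fold higher. The other 2 were lower, Slc4a1, the red cell anion exchanger, reading 195.2 and 148.2 and Alas2, an enzyme of haem synthesis, 662.4 and 609.2, so that the higher summed signal of the list (1931.9 and 4065.2) came from the globins. All 3 measured heart muscle markers were at least 1.5-fold lower, the list summing to 166.0 and 104.2. Myl7 read 83.6 and 46.2, a log2 ratio of -0.86. The other 2 were dim, Myh7 at 24.9 and 15.4 (-0.69) and Tnnt2 at 30.6 and 20.1 (-0.61). Myh7 was only just above the floor in the TAZ-deficient pool. The rest of the list, Myh6, Nppa and Actn2, lay below the floor in both pools and got no fold. The 3 measured neural markers had negative ratios and none was 1.5-fold different, the list summing to 132.3 and 111.2. The part of these cells in the ratios of the members was not tested, and in whole lung fewer cells of a type and less RNA per cell cannot be told apart.

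The ratios of the members were recomputed under 8 other ways of processing. Those of Sav1, Mob1a and Frmd6 had the same sign in all 8, with ranges of -0.11 to -0.09, -0.17 to -0.13 and -0.29 to -0.26. Part of this follows from how the settings work. Frmd6 has a single, unshared probe set above every floor, so 4 of the 8 settings return the same value for it, as 3 do for Sav1 and Mob1a, and the settings that change the probe set could not turn its sign. Each of the other 6 members turned sign in 1 or 2 of the 8, and for all of them but Lats2 this came from the settings that change the probe set. Under quantile normalization and loess Lats2 had a positive ratio, with 0.0079 the highest value, and without shared probe sets it was -0.29. The ratio of Wwc1 was 0.02 as a median of its probe sets and 0.30 when shared probe sets were omitted.

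**Figure D5:**
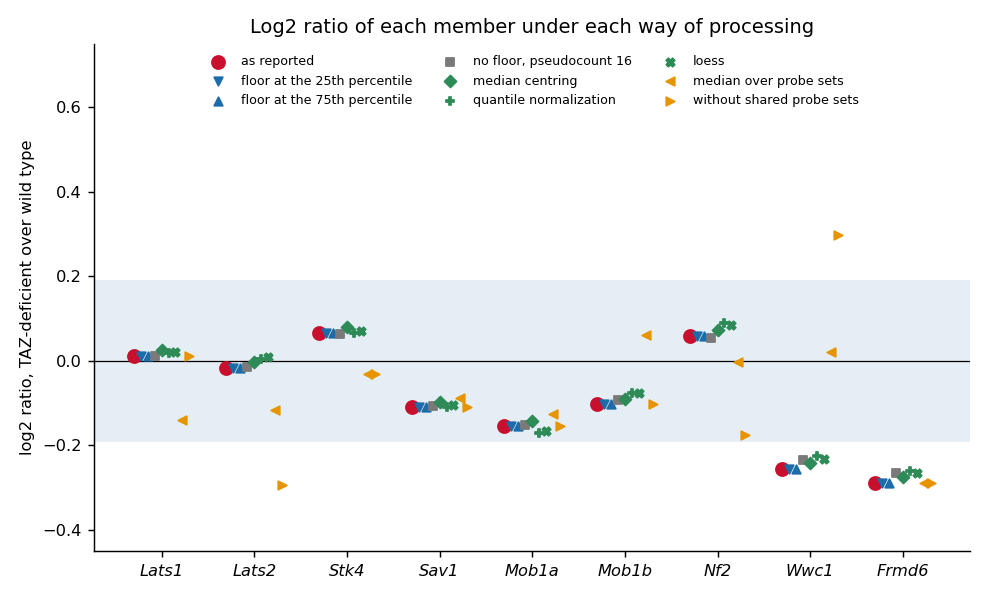
Log2 ratio (TAZ-deficient divided by wild type, vertical axis) of each member as reported (large red point) and under 8 other ways of processing (small symbols), with the band of 0.19 either side of 0. Changes of floor and scaling (blue, grey and green) moved the points little, while a change of the probe set that stands for the gene (orange) moved Wwc1, Lats2 and Nf2 most.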

How the data were processed

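The authors deposited linear intensity values, 1 per probe set and array, and the submitters' processing notes name GCOS and MAS5 without a version. Each array had a mean of 100.001 once 2% of values was trimmed at either end, so both had been scaled alike, and no normalization was added. Detection calls were not used here, and a genome build was used only for gene symbols and promoter sequences. Of 45101 probe sets, 64 were controls, 34945 named 1 gene, 932 named several and 9160 were unlisted. RefSeq symbols (GRCm38.p6) were found by Entrez identifier for 34741.

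Values under 15.2, the median of all non-control values, were raised to it before log2, and a probe set at or below it on both arrays got no fold. A gene was represented by its brightest probe set. A fold of 1.5 was the call and 1.2 a description. The text names every member, Wwtr1, and in each further list that is described by genes those past 1.5-fold (at most 4) or else the 2 brightest. Nkx2-1, Scgb3a2, Xpo4, Taok2, Tead3, Ccn1, Ccn2, Limd1, Siah2, Acta2 and Myocd were added after their values were seen. So were the Vgll genes and the red cell and heart muscle genes. Members and lists were chosen with earlier results of these data known. Fold recovery was checked on simulated data without noise, which tests the arithmetic and not the error of single arrays. Python 3.11.15, pandas 2.3.3 and statsmodels 0.14.6 were used. The number of arrays limits the precision.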

Additional observations from a re-analysis of the deposited data

How the results depend on the processing

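Floors at the 25th and 75th percentile (4.3 and 106.3 signal units), a pseudocount of 16 without a floor, median centring, quantile normalization, loess, the median over probe sets and the omission of shared probe sets (suffix a, s or x) were tried. The median log2 ratio of the members stayed between -0.11 and -0.08, the count past 1.5-fold stayed at 0, and 5 to 7 of 9 ratios were negative. Of 72 recomputed member ratios 4 moved by more than the SD between probe sets. The count past 1.5-fold of RASSF scaffolds, 1 as reported, was 0 for the higher floor, the pseudocount and the median over probe sets. That of Fat and Dachsous genes, also 1, was 0 under the same 3 settings and without shared probe sets. That of the paralogues, 0, was 1 for the lower floor. That of canonical targets, 2, was 3 for the lower floor and 0 for the higher floor and the pseudocount. It was 1 under median centring, quantile normalization, loess, the median over probe sets and the omission of shared ones. The cause was not tested. No paired analysis was possible because each group had 1 array, and no array could be left out. Over all measured genes the counts 1.5-fold lower and higher were 178 and 153 as reported, 1173 and 851 for the lower floor, 13 and 14 for the higher, and 75 and 59 with the pseudocount.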
